A study of Mus musculus with 14 samples.

Results

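The genes described here encode, with few exceptions named below, the nuclear subunits of respiratory complexes III and IV and of ATP synthase, the enzymes of the mitochondrial inner membrane that carry electrons to oxygen and make ATP. They were taken as every gene symbol that starts with Uqcr, Cox4, Cox5, Cox6, Cox7, Cox8 or Atp5, or equals Cyc1, without names that hold -ps. This gave 41 of the 26683 symbols in the count table, 9 named for complex III, 15 for complex IV and 17 for ATP synthase. RNA had been sequenced from CD4 T cells sorted from spleens of female mice at 8 months of age, 3 TC and 4 B6. TC mice are B6.NZM-Sle1NZM2410/AegSle2NZM2410/AegSle3NZM2410/Aeg/LmoJ, a congenic stock in which the intervals Sle1, Sle2 and Sle3 of the lupus-prone strain NZM2410, known to lie on chromosomes 1, 4 and 7, were bred onto the B6 background, and B6 is C57BL/6J. Each mouse gave a library of follicular helper T cells (Tfh, CD4+ CD44+ CD162 low or negative, PD-1+) and a library of naive T cells (Tn, CD4+ CD44-), so the groups were 3 TC Tfh, 3 TC Tn, 4 B6 Tfh and 4 B6 Tn libraries. The strain difference is that of whole congenic intervals and not of a single allele, and no group of this series carries a drug treatment in its labels. The labels are not of one mind: the source name of the Tn libraries reads follicular helper T cells, as that of the Tfh libraries does, while titles and the cell type entry call them naive, and a protocol speaks of WT and KO animals although no label names a knockout. Groups were taken from the titles, and the markers given below go with the titles.

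Complex III takes electrons from ubiquinol and passes them to cytochrome c while pumping protons. Complex IV, cytochrome c oxidase, hands these electrons to oxygen and pumps protons as well, and ATP synthase lets the protons flow back through its membrane ring and uses the turning of a central stalk to make ATP. Most subunits are encoded in the nucleus, translated in the cytosol and imported, and join a few subunits made from the mitochondrial genome. In lymphocytes, oxidative phosphorylation is known to feed quiescent naive cells, while activated cells also draw heavily on glycolysis.

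The sequencing was of bulk sorted cells, so fewer cells of a type and less RNA per cell cannot be told apart. Library totals ran from 15162309 to 20191558 counts. Levels are given as normalised CPM, CPM on library totals scaled by TMM, and p-values come from edgeR's quasi-likelihood test with Benjamini-Hochberg adjustment over 13427 genes, a gene being called at an adjusted p below 0.05. All 7 Tfh markers (Cxcr5, Pdcd1, Bcl6, Il21, Tox2, Icos, Angptl2) were higher in Tfh and all 6 naive markers lower, in TC and in B6 alike. Transcripts of genes used as markers of other cells were present too. Whether they came from such cells or from the sorted cells themselves was not tested. The summed level of 8 regulatory T cell markers was 2661 to 3147 normalised CPM in TC Tfh and 139 to 181 in TC Tn, against 2249 to 2674 in B6 Tfh and 178 to 228 in B6 Tn. That of 10 B cell markers was 71.9 to 99.9 in TC Tfh and 1.21 to 2.23 in TC Tn, against 107 to 117 in B6 Tfh and 1.40 to 2.58 in B6 Tn, with Fcer2a at 0 in TC Tfh and Tn and Blk at 0 in TC Tn. Of the 8 regulatory T cell genes 3 were called higher and 2 lower in TC Tfh than in B6 Tfh (median log2 fold change 0.012). In TC Tn 1 was higher and 4 lower than in B6 Tn (median −0.20). Of the 5 B cell genes tested 1 was lower in TC in each cell type. Cytosolic ribosomal protein genes, short transcripts like most of the respiratory genes, took 2.90 to 2.98% of counts in TC Tfh, 6.19 to 6.75% in TC Tn, 3.59 to 4.73% in B6 Tfh and 8.08 to 9.51% in B6 Tn. B6 Tfh library 2 stood apart within its group: it was the highest of the 4 B6 Tfh libraries for 35 of the 38 respiratory genes tested and had that group's highest ribosomal protein share, 4.73%. Counts of called genes that rest on B6 Tfh were therefore also made without it. Among single genes, leaving it out ended the call of Atp5l in TC Tfh against B6 Tfh, of Atp5l and Cox6c in B6 Tfh against B6 Tn, and of Uqcrc1 in TC Tfh against TC Tn, and no other called strain or cell type difference of the 38 genes.

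Of the 41 genes 38 had enough counts to be tested. The other 3 are isoforms of other tissues: Cox6a2, of heart and muscle, had 1 count in all 14 libraries, in B6 Tn 4, Cox4i2, known from lung, had at most 2 counts in any library, and Cox7a1, of heart and muscle, at most 6. Per length of transcript, the level of Atp5b, the catalytic beta subunit of the F1 head, was 234 normalised CPM per kb in TC Tfh, 294 in TC Tn, 304 in B6 Tfh and 411 in B6 Tn. Close to it in level per kb stood Uqcrh, the acidic hinge protein that binds cytochrome c1, at 191 in TC Tfh, 265 in TC Tn, 286 in B6 Tfh and 388 in B6 Tn. Cox4i1, the ubiquitous form of the largest nuclear subunit of complex IV, was at 176 per kb in TC Tfh, 249 in TC Tn, 266 in B6 Tfh and 361 in B6 Tn. The low end of the subunits of complex III was Uqcrfs1, the Rieske iron-sulphur protein, at 28.3 per kb in TC Tfh, 46.1 in TC Tn and 36.5 in B6 Tfh, with Uqcr11 below it in TC Tn and B6 Tn. The testis isoform Cox6b2 and the symbols Atp5s and Atp5l lay far lower, between 0.628 and 4.04 per kb. These levels assume 1 representative transcript length per gene.

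**Figure D1:**
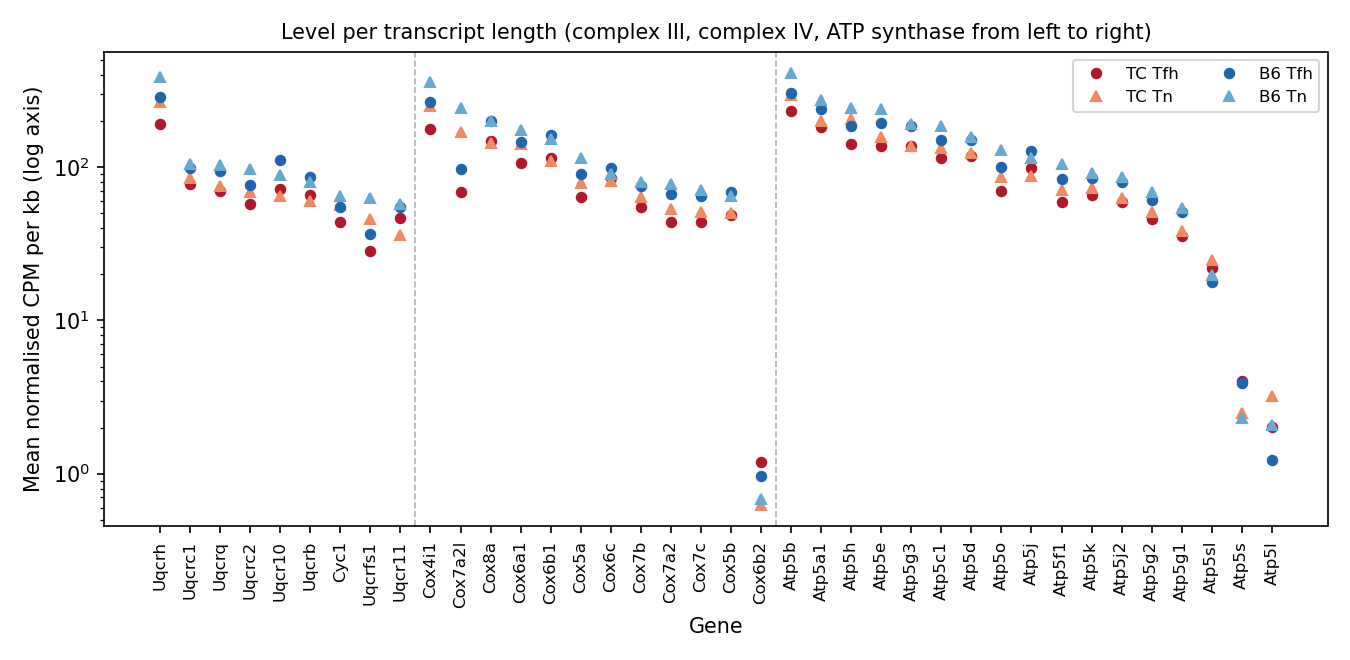
Mean level of each of the 38 genes tested, in normalised CPM per kb of transcript on a log axis, for TC Tfh, TC Tn, B6 Tfh and B6 Tn; genes run from high to low within complex III, complex IV and ATP synthase. Most subunits lie between 28 and 411 per kb, while Cox6b2, Atp5s and Atp5l stay below 5.

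Sequence upstream of the start sites is shown for 5 genes named in the results below, to let their promoters be compared. The stretches are from RefSeq promoter windows (250 bases before to 50 after a start) on GRCm38.p6, cut to the part outside annotated exons, printed 5′ to 3′ on the strand of the gene, all of them minus strand. Capitals mark the letters CCGGAAG, the core bound by ETS factors such as GABP, or the palindrome bound by NRF1, GCGCA followed at once by its reverse complement, on either strand; both factors are known as regulators of respiratory genes.
Uqcrh at chr4:116075072-116075268: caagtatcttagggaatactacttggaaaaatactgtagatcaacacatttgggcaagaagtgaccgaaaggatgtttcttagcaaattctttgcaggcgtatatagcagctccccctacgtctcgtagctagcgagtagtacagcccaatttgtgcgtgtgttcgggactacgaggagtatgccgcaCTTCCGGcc
Uqcr11 at chr10:80406831-80407071: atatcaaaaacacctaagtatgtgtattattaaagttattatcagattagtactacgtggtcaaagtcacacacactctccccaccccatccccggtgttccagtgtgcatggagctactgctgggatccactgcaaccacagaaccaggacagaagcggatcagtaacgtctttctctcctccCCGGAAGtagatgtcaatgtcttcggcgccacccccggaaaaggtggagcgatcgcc
Cox6a1 at chr5:115348982-115349129: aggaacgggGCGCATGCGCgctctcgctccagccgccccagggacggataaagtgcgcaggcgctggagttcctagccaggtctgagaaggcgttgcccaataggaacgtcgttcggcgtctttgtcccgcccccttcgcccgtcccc
Uqcrfs1 at chr13:30545363-30545566: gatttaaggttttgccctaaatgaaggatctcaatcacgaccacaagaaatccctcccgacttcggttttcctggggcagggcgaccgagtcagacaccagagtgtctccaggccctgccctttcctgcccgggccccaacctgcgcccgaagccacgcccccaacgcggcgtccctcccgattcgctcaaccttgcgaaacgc
Cox7a2l at chr17:83514334-83514583: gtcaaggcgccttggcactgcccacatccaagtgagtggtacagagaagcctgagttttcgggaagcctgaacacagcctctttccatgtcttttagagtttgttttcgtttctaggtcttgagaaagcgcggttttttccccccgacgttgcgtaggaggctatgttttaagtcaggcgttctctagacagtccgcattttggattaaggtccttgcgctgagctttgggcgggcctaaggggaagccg
The ETS letters began 10 bases before the start of Uqcrh, there as the reverse complement, and 66 bases before that of Uqcr11. The NRF1 letters began 162 bases before the start of Cox6a1. The Cox6a1 window also held the ETS letters, 16 bases before the start and outside the printed stretch. Neither motif was in the Uqcrfs1 or Cox7a2l window, which says only that these letters are not there, and the RefSeq start of Cox7a2l lies within the gene's longer GENCODE span.

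RefSeq windows were found for 32 of the 41 genes, 36 windows in all. The NRF1 letters were in 4 of the 36 windows (11.1%) and in 0.971% of all 32851 windows of the same length. The ETS letters were in 10 windows (27.8%), against 8.86% of all windows, and AAGATGGC, the letters bound by YY1, in 5 (13.9%), against 2.75%. The NRF1 letters were those of Uqcrc1, Cox6a1, Atp5g2 and Atp5k, and Cox6a1 and Atp5k held the ETS letters too. A match describes the sequence and not a bound site.

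Most of the genes were lower in TC than in B6 cells, in Tfh and in Tn. Their summed level was 3022 ± 87.3 normalised CPM in TC Tfh and 4032 ± 262 in B6 Tfh, and 3616 ± 104 in TC Tn and 4904 ± 190 in B6 Tn (SD, n = 3 TC and 4 B6). No TC library reached a B6 library of the same cell type: TC Tfh sums ended at 3119 and B6 Tfh sums began at 3789, and TC Tn sums ended at 3735 where B6 Tn sums began at 4668. In Tfh, 34 of the 38 genes tested were called lower in TC and 2 higher, where 25.5% of all genes tested were called lower and 24.2% higher. In Tn, 33 were called lower and 2 higher, against 26.1% and 25.9% of all genes. The median log2 fold change of TC over B6 was −0.43 in Tfh and −0.46 in Tn, against −0.016 and −0.0070 over all genes. Gene by gene, 34 genes in Tfh and 33 in Tn had every TC library below every B6 library, where 25.9% and 28.1% of all genes did. The reverse held for 2 genes in Tfh and 1 in Tn, where it held for 24.3% and 27.4% of all genes. Without B6 Tfh 2, 34 genes in Tfh lay below without overlap and 2 above, against 27.8% and 25.6% of all genes.

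**Figure D2:**
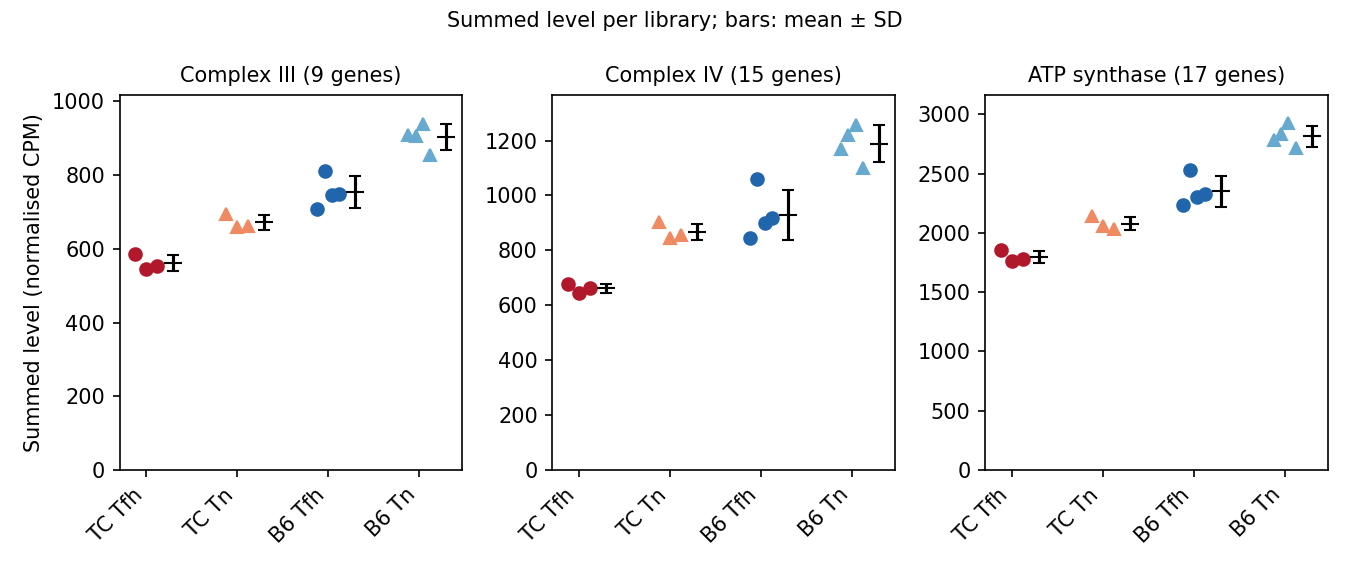
Summed level of the genes of complex III, complex IV and ATP synthase in each library, in normalised CPM, with mean ± SD per group (3 TC or 4 B6 libraries). In each complex the TC libraries lie below all B6 libraries of the same cell type, and on this scaling the mean of Tfh lies below that of Tn within each strain.

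The 2 strain comparisons rest on different libraries of the same 7 mice. They called 33 genes lower in TC in both cell types and 2 higher in both, Atp5sl and Atp5l. The share of all genes called alike in both cell types is not given here, so the joint counts have no baseline. Without B6 Tfh 2, 34 genes were called lower in Tfh and 1 higher, against 22.2% and 23.0% of all genes, with a median of −0.37, and 34 were called lower in both cell types and 1 higher in both. With offsets for transcript length and GC content the medians were −0.31 in Tfh and −0.33 in Tn, with 33 and 32 genes called lower, against 24.8% and 25.4% of all genes. The ribosomal protein share was lower in every TC library than in any B6 library of the same cell type, and its part in the result was not tested. Between strains the summed level of 7 NK and CD8 T cell markers was 24.4 to 27.5 normalised CPM in TC Tfh against 30.9 to 52.3 in B6 Tfh, and 55.6 to 64.6 in TC Tn against 26.6 to 31.4 in B6 Tn, with Ncr1 at 0 in every library and Cd8a at 0 in TC Tfh and B6 Tfh. That of 9 myeloid markers was 44.4 to 52.5 in TC Tfh against 60.6 to 87.9 in B6 Tfh, and 35.4 to 39.5 in TC Tn against 44.7 to 53.1 in B6 Tn, with S100a8 at 0 in TC Tfh and TC Tn and S100a9 at 0 in TC Tfh. The 6 naive markers summed to 5724 to 6161 in TC Tn against 6951 to 8315 in B6 Tn. Of the 5 NK and CD8 T cell genes tested 1 was called higher and 2 lower in TC Tfh, and 2 higher and 1 lower in TC Tn. Of the 5 myeloid genes tested 4 were lower in TC Tfh, and 1 was higher and 3 lower in TC Tn. Of the 6 naive genes 1 was higher and 3 lower in TC Tn. The part of these markers in the result, and of the regulatory T and B cell markers given above, was not tested.

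**Figure D3:**
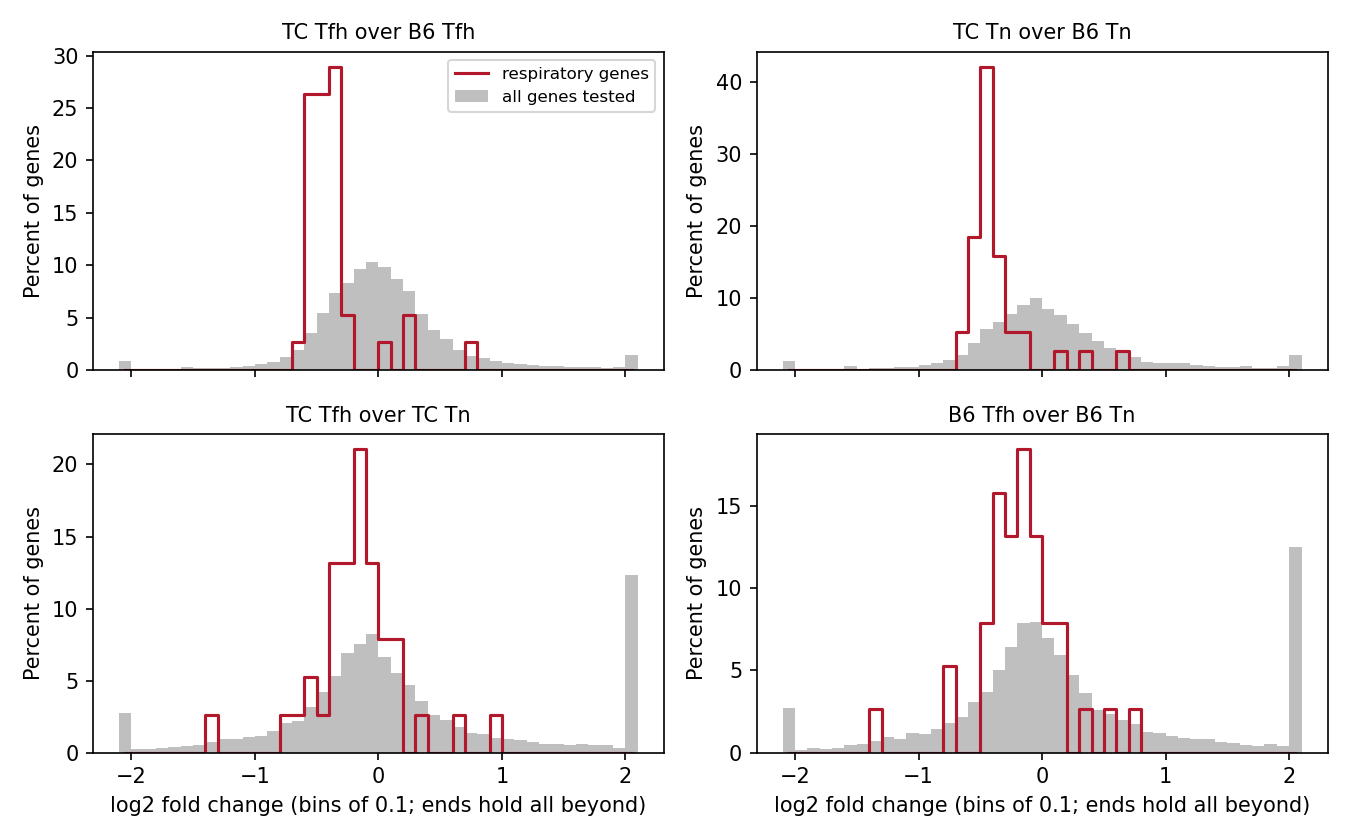
Distribution of log2 fold changes for the 38 respiratory genes (red line) and all 13427 genes tested (grey), each as percent of its genes per bin of 0.1, for TC over B6 in Tfh and Tn (top) and Tfh over Tn in TC and B6 (bottom). Between strains the respiratory genes gather near −0.43 and −0.46, and between cell types they spread around −0.17 and −0.13, medians that turned to 0.057 and 0.021 with offsets for length and GC content.

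All 9 complex III genes were lower in TC in both cell types, where 25.5% of all genes were in Tfh and 26.1% in Tn. Their log2 fold changes ran from −0.62 to −0.26 in Tfh and from −0.66 to −0.21 in Tn. Uqcr10, a small supernumerary subunit, had 32.9, 29.1 and 31.9 normalised CPM in TC Tfh, against 45.7, 52.6, 47.1 and 47.3 in B6 Tfh. Every TC value lay below every B6 value, a fall of 1.54-fold (log2 fold change −0.62, SE 0.063, adjusted p = 9.65e-07). In Tn it fell too (log2 fold change −0.47, SE 0.065, adjusted p = 1.33e-05). Uqcrh, whose promoter is printed above and which lies on chromosome 4, had 111, 98.2 and 104 normalised CPM in TC Tfh, against 143, 169, 155 and 157 in B6 Tfh. It had 154, 141 and 140.1 in TC Tn, against 212, 214, 226 and 198 in B6 Tn. The groups did not overlap in either cell type (Tfh: log2 fold change −0.58, SE 0.064, adjusted p = 2.04e-06; Tn: log2 fold change −0.55, SE 0.063, adjusted p = 1.82e-06).

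The catalytic and core subunits of complex III fell with the small ones. Uqcrc2, a core protein on chromosome 7, had 135, 127 and 131 normalised CPM in TC Tn, against 191, 185, 192 and 165 in B6 Tn. All TC Tn values were below the lowest B6 Tn value, that of mouse 4 (log2 fold change −0.48, SE 0.055, adjusted p = 1.67e-06), and in Tfh the gene fell as well (log2 fold change −0.43, SE 0.055, adjusted p = 1.01e-05). The other core protein, Uqcrc1, fell by 0.33 in Tfh (adjusted p = 3.86e-05) and 0.30 in Tn (adjusted p = 5.26e-05) on the log2 scale. Cyc1, the haem-bearing cytochrome c1, fell by 0.32 in Tfh (adjusted p = 0.000138) and by 0.21 in Tn (adjusted p = 0.00403). Uqcrfs1, the Rieske protein that takes the first electron, fell by 0.37 in Tfh (adjusted p = 4.25e-05) and by 0.45 in Tn (adjusted p = 2.59e-06).

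In complex IV, 11 of the 12 genes tested were lower in TC Tfh and 10 in TC Tn, where 25.5% and 26.1% of all genes were. Cox5a and Cox5b, nuclear subunits that sit on the catalytic core made in the mitochondria, both fell. Cox5a had 42.4, 39.2 and 41.4 normalised CPM in TC Tfh, against 53.5, 65.1, 56.1 and 58.6 in B6 Tfh, and 53.8, 48.4 and 49.4 in TC Tn, against 74.1, 72.02, 79.1 and 68.9 in B6 Tn. No values overlapped between strains (Tfh: log2 fold change −0.51, SE 0.069, adjusted p = 1.57e-05; Tn: log2 fold change −0.54, SE 0.067, adjusted p = 4.54e-06). Cox5b, on chromosome 1, fell in both cell types (Tfh: log2 fold change −0.48, SE 0.070, adjusted p = 3.25e-05; Tn: log2 fold change −0.36, SE 0.070, adjusted p = 0.000363). Cox4i1 had 135, 130.1 and 129 normalised CPM in TC Tfh, against 172, 232, 192 and 195 in B6 Tfh, where library 2 was the highest (log2 fold change −0.59, SE 0.080, adjusted p = 1.75e-05). In Tn its fall was of similar size (log2 fold change −0.53, SE 0.079, adjusted p = 2.89e-05).

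Cox7a2, the form of subunit 7a outside heart and muscle, had 29.3, 27.3 and 30.3 normalised CPM in TC Tfh, against 40.5, 47.3, 42.9 and 44.03 in B6 Tfh. All TC Tfh values were below all B6 Tfh values (log2 fold change −0.59, SE 0.070, adjusted p = 4.03e-06), and the same held in Tn (log2 fold change −0.53, SE 0.068, adjusted p = 6.08e-06). Cox8a, the ubiquitous form of a small subunit, fell by 0.43 in Tfh (adjusted p = 2.32e-05) and 0.46 in Tn (adjusted p = 7.45e-06) on the log2 scale. Cox6b1, on chromosome 7, a subunit on the intermembrane side, fell by 0.50 in Tfh (adjusted p = 1.52e-05) and 0.47 in Tn (adjusted p = 2.33e-05). Cox6c moved the least of the genes with more than 20 normalised CPM. Its level was 51.6 ± 1.25 normalised CPM in TC Tfh and 59.9 ± 4.64 in B6 Tfh (log2 fold change −0.21, SE 0.063, adjusted p = 0.00907), and 49.2 ± 2.58 in TC Tn and 54.5 ± 2.85 in B6 Tn (log2 fold change −0.15, SE 0.063, adjusted p = 0.0571). The Tfh call ended with the length and GC offsets (adjusted p = 0.114), and the Tn comparison passed without B6 Tfh 1, B6 Tfh 2, B6 Tn 4 or TC Tfh 2 (adjusted p 0.0224 to 0.0491), with RLE (0.0400) and with TMM computed without ribosomal, mitochondrial and receptor genes (0.0141). Cox6b2 had at most 16 counts in a library and was called in neither cell type (adjusted p = 0.525 and 0.855).

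Of the 17 symbols named for ATP synthase, 14 were lower in TC in each cell type, where 25.5% of all genes were in Tfh and 26.1% in Tn. Among them were all 5 subunits of the F1 head and central stalk (Atp5a1, Atp5b, Atp5c1, Atp5d and Atp5e). Atp5b had 472, 438 and 432 normalised CPM in TC Tfh, against 555, 607, 579.8 and 586 in B6 Tfh, and 583, 563 and 544 in TC Tn, against 766, 778, 832 and 771 in B6 Tn. The strains did not overlap in either cell type (Tfh: log2 fold change −0.38, SE 0.054, adjusted p = 2.68e-05; Tn: log2 fold change −0.48, SE 0.054, adjusted p = 1.50e-06). Its partner in the head, Atp5a1, fell by 0.39 in Tfh (adjusted p = 6.96e-06) and 0.45 in Tn (adjusted p = 9.30e-07) on the log2 scale. The rotor subunits Atp5c1 (gamma), Atp5d (delta) and Atp5e (epsilon) fell by 0.39, 0.33 and 0.48 in Tfh and by 0.47, 0.33 and 0.62 in Tn, with adjusted p no higher than 0.00147.

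Atp5o, the OSCP subunit that joins the head to the peripheral stalk, had the smallest adjusted p of the ATP synthase genes in both cell types. It had 60.8, 55.8 and 58.6 normalised CPM in TC Tfh, against 80.2, 92.2, 79.5 and 83.2 in B6 Tfh, and 74.9, 72.5 and 69.9 in TC Tn, against 111, 108, 109.6 and 105 in B6 Tn. TC was below B6 without overlap in each (Tfh: log2 fold change −0.52, SE 0.055, adjusted p = 1.52e-06; Tn: log2 fold change −0.58, SE 0.055, adjusted p = 2.25e-07). Among the other stalk subunits Atp5f1 (b) fell by 0.51 in Tfh and 0.55 in Tn, Atp5h (d) by 0.39 and 0.24, and Atp5j (F6) by 0.36 and 0.40, all on the log2 scale and with adjusted p no higher than 0.00798. Atp5h lost its Tn call with the length and GC offsets (adjusted p = 0.218). The membrane subunits Atp5j2 (f) and Atp5k (e) fell in both cell types, with adjusted p no higher than 0.00612.

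Subunit c, the proton-carrying ring, is encoded by 3 genes that give the same mature protein. All 3 were lower in TC: in Tfh by 0.51 (Atp5g1), 0.41 (Atp5g2) and 0.43 (Atp5g3), and in Tn by 0.50, 0.44 and 0.46 on the log2 scale, with adjusted p no higher than 0.000370. Per length of transcript Atp5g3 gave 62.8 ± 1.42% of the 3 in TC Tfh, 60.8 ± 1.01% in TC Tn, 62.4 ± 1.56% in B6 Tfh and 60.9 ± 1.92% in B6 Tn. Atp5g2 gave 20.5 to 22.4% and Atp5g1 16.3 to 17.2% as group means. The shares of the 3 genes were thus within 2 percentage points between strains.

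Of the 38 genes only Atp5sl and Atp5l were called higher in TC. Atp5sl, now named Dmac2, is no subunit but an assembly factor of complex I, and lies on chromosome 7. It had 51.03, 52.3 and 53.6 normalised CPM in TC Tfh, against 39.3, 45.6, 43.3 and 41.9 in B6 Tfh, and 57.96, 60.6 and 60.1 in TC Tn, against 42.99, 45.3, 52.1 and 47.6 in B6 Tn. Every TC value was above every B6 value of the cell type, a rise of 1.23-fold in Tfh (log2 fold change 0.30, SE 0.063, adjusted p = 0.000874) and 1.27-fold in Tn (log2 fold change 0.34, SE 0.063, adjusted p = 0.000197).

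Atp5l, membrane subunit g, had 24, 15 and 18 counts in TC Tfh, 29, 27 and 35 in TC Tn, 14, 11, 12 and 15 in B6 Tfh and 32, 14, 16 and 20 in B6 Tn. These counts are far below those of the other subunits of the enzyme. The gene has close pseudogene copies, and how reads that match several places were counted is not given in the sources used here. Its rise in TC Tfh (log2 fold change 0.71, SE 0.29, adjusted p = 0.0488) stayed called only without B6 Tfh 4, B6 Tn 1 or B6 Tn 2 when a library was left out (adjusted p 0.0308 to 0.197). That in TC Tn (log2 fold change 0.63, SE 0.26, adjusted p = 0.0489) stayed called only without B6 Tfh 2 or B6 Tn 1 (adjusted p 0.00932 to 0.153), and TC Tn and B6 Tn values overlapped. Atp5s, named factor B and not a subunit of the enzyme either, was called in neither cell type, at 5.99 ± 0.578 normalised CPM in TC Tfh and 5.80 ± 0.752 in B6 Tfh, and 3.72 ± 0.0384 in TC Tn and 3.40 ± 0.576 in B6 Tn.

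Genes that fell in TC lay on chromosomes with and without Sle intervals. Of the 6 tested genes on chromosomes 1, 4 and 7, where the Sle intervals lie, 4 were lower and 1 higher in each cell type (Uqcrc2, Uqcrh, Cox5b and Cox6b1, and Atp5sl). Of the 32 on other chromosomes 30 were lower in TC Tfh and 29 in TC Tn, and 1, Atp5l, was higher in each. Over all chromosomes 25.5% of all genes tested were lower and 24.2% higher in TC Tfh, and 26.1% and 25.9% in TC Tn. Shares of all genes by chromosome are not given here, so the 2 sets of chromosomes have no baseline of their own. Without B6 Tfh 2 the Tfh counts were 4 lower and 1 higher on chromosomes 1, 4 and 7 and 30 lower elsewhere. Over all chromosomes 22.2% of all genes were then lower and 23.0% higher. The median log2 fold change was −0.45 on chromosomes 1, 4 and 7 and −0.42 elsewhere in Tfh, and −0.41 and −0.46 in Tn. Whether a gene lies inside an interval was not tested, since the intervals' ends are not in the files.

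**Figure D4:**
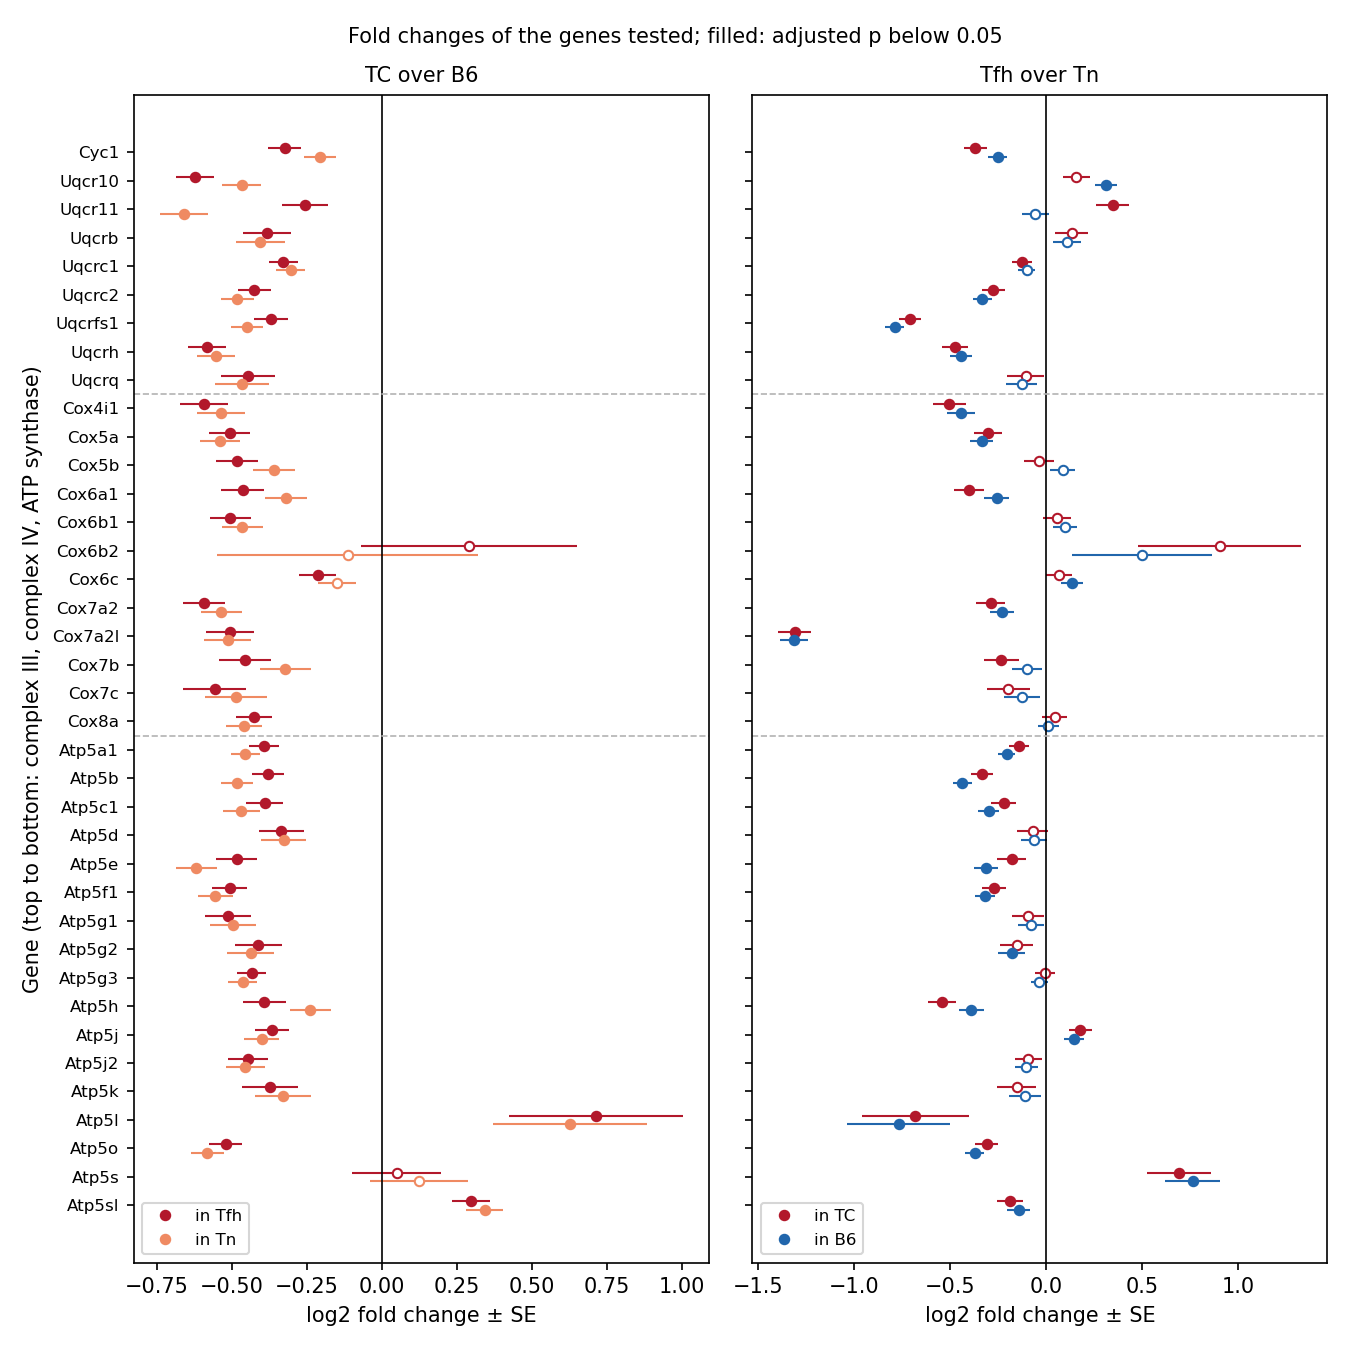
Log2 fold changes ± SE of the 38 genes tested, TC over B6 in Tfh and Tn (left) and Tfh over Tn in TC and B6 (right); filled points passed an adjusted p below 0.05 and open points did not. On the left all points lie below 0 but those of Atp5l, Atp5s and Atp5sl and that of Cox6b2 in Tfh. On the right the genes differ in direction, with Cox7a2l lowest at −1.31 in both strains.

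Between cell types the genes moved unevenly. The summed level was 3022 ± 87.3 normalised CPM in TC Tfh and 3616 ± 104 in TC Tn, and 4032 ± 262 in B6 Tfh and 4904 ± 190 in B6 Tn. In TC 3 genes were called higher in Tfh, 20 lower and 15 not, where 33.7% of all genes tested were called higher and 32.4% lower. In B6 4 were called higher, 19 lower and 15 not, where 36.9% of all genes were higher and 33.3% lower. The median log2 fold change of Tfh over Tn was −0.17 in TC and −0.13 in B6, and turned to 0.057 and 0.021 with offsets for transcript length and GC content. Over all genes the median was −0.0094 in TC and 0.018 in B6. Of the genes, 18 were lower in both strains, 2 higher in both (Atp5j and Atp5s) and 12 called in neither. The share of all genes called alike in both strains is not given here, so these joint counts have no baseline. Libraries of the cell types did not overlap for 5 genes higher and 21 lower in Tfh in TC, where 35.7% and 35.6% of all genes were so placed, and for 3 higher and 16 lower in B6, where 33.8% and 30.1% were. Without B6 Tfh 2, 17 genes were lower in both strains, 3 higher in both and 11 called in neither, and the libraries did not overlap for 3 genes higher and 21 lower in B6, against 36.2% and 32.7% of all genes.

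These counts changed with the scaling. The tested genes had a median transcript length of 702.5 bases, against 2640 over all genes. With the offsets for length and GC content 15 genes were higher and 13 lower in TC, where 35.0% and 34.2% of all genes were, and 14 higher and 14 lower in B6, where 38.0% and 34.3% were. Scaled by library totals alone the median was −0.057 in TC, with 9 higher and 13 lower, where 40.0% and 25.1% of all genes were. In B6 it was −0.00048, with 9 higher and 14 lower, where 45.7% and 24.0% of all genes were. That scaling moved the median of all genes to 0.099 in TC and 0.15 in B6. With 1 library left out, the count of higher genes was 5 in TC without B6 Tfh 1 and 2 in B6 without B6 Tn 1. Of all genes 4716 of 13341 and 4831 of 13388 were higher there. Without B6 Tfh 2, B6 had 3 higher and 21 lower, against 38.1% and 31.7% of all genes, with a median of −0.18. The ribosomal protein share was lower in Tfh than in Tn in both strains, and its part in these calls was not tested. Sums of markers of other cells differed between the cell types as well, though single markers did not all go the same way. The summed level of 6 plasma cell markers was 117 to 140 normalised CPM in TC Tfh against 53.5 to 66.4 in TC Tn, and 132 to 155 in B6 Tfh against 64.8 to 68.7 in B6 Tn, with Tnfrsf17 at 0 in TC Tfh, TC Tn and B6 Tn. That of the 9 myeloid markers was 44.4 to 52.5 in TC Tfh against 35.4 to 39.5 in TC Tn, and 60.6 to 87.9 in B6 Tfh against 44.7 to 53.1 in B6 Tn. That of the 7 NK and CD8 T cell markers was lower in TC Tfh, at 24.4 to 27.5 against 55.6 to 64.6 in TC Tn, and spread over 30.9 to 52.3 in B6 Tfh against 26.6 to 31.4 in B6 Tn. Of the 4 plasma cell genes tested 3 were called higher in Tfh in TC and 4 in B6. Of the 5 myeloid genes tested 1 was higher and 1 lower in TC (median −0.55), and 3 higher and 1 lower in B6. Of the 5 NK and CD8 T cell genes tested 2 were higher and 3 lower in TC, and 3 higher and 2 lower in B6. The part of these markers, and of the regulatory T and B cell markers given above, in the cell type differences was not tested.

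Cox7a2l fell the most in Tfh in both strains. Its product, SCAF1, is related to subunit 7a and joins complex III to complex IV in supercomplexes, and C57BL/6 mice are known to carry a shortened form of it. The gene lies on chromosome 17 (83501918 to 83517330, minus strand, GRCm38). It had 73.5, 75.6 and 72.5 normalised CPM in TC Tfh, against 197, 174 and 177 in TC Tn. In B6 it had 90.05, 122, 104 and 104 in Tfh, against 262, 264, 277 and 241 in Tn. The Tfh values were far below all Tn values in each strain, by 2.47-fold in TC (log2 fold change −1.31, SE 0.086, adjusted p = 4.11e-10) and 2.49-fold in B6 (log2 fold change −1.31, SE 0.073, adjusted p = 2.88e-11). Between strains it followed the other subunits (Tfh: log2 fold change −0.51, SE 0.081, adjusted p = 8.11e-05; Tn: log2 fold change −0.51, SE 0.078, adjusted p = 3.59e-05).

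**Figure D5:**
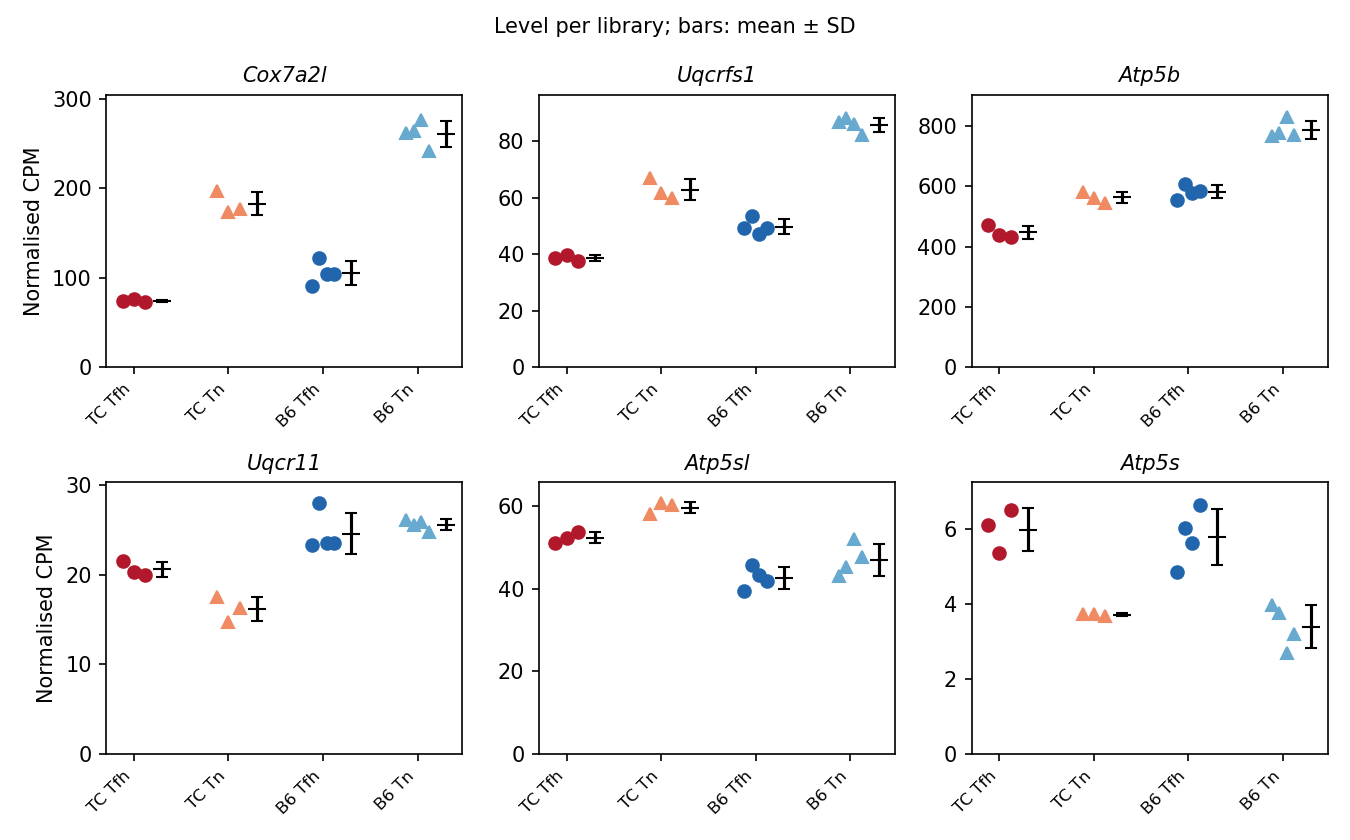
Level of 6 genes in each library, in normalised CPM, with mean ± SD per group (3 TC or 4 B6 libraries). Cox7a2l, Uqcrfs1 and Atp5b are lower in Tfh than in Tn and lower in TC than in B6, Uqcr11 is higher in Tfh than in Tn in TC, Atp5sl is higher in TC, and Atp5s is higher in Tfh.

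In complex III, Uqcrfs1 had the smallest adjusted p between cell types. It had 38.5, 39.5 and 37.6 normalised CPM in TC Tfh, against 66.9, 61.8 and 59.9 in TC Tn, and 49.4, 53.4, 47.1 and 49.1 in B6 Tfh, against 86.6, 88.2, 86.2 and 82.2 in B6 Tn. No Tfh value came near a Tn value of the same strain (TC: log2 fold change −0.71, SE 0.059, adjusted p = 7.20e-09; B6: log2 fold change −0.79, SE 0.049, adjusted p = 1.01e-10). Uqcrh fell by 0.47 in TC and 0.44 in B6, Cyc1 by 0.37 and 0.25, and Uqcrc2 by 0.27 and 0.33 on the log2 scale, with adjusted p no higher than 0.000497. Uqcrc1 passed in TC (log2 fold change −0.12, adjusted p = 0.0439) and not in B6 (−0.10, adjusted p = 0.0524). In B6 Uqcrc1 was called by DESeq2, limma voom, with mouse as a block and with the length and GC offsets. It was also called there with TMM computed without ribosomal, mitochondrial and receptor genes, and without B6 Tfh 2 or B6 Tn 4. The TC call of Uqcrc1 stayed only without B6 Tn 1, B6 Tn 4 or TC Tfh 1 when a library was left out, with an adjusted p of up to 0.297 without TC Tfh 4 and of 0.794 with library totals.

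Uqcr10, one of the small subunits of complex III, had the other direction in both strains and was called in B6. It was higher in B6 Tfh, at 45.7, 52.6, 47.1 and 47.3 normalised CPM, against 39.1, 38.03, 41.3 and 36.7 in B6 Tn, without overlap (log2 fold change 0.31, SE 0.057, adjusted p = 8.77e-05). In TC the same gene had 32.9, 29.1 and 31.9 in Tfh and 27.5, 27.7 and 28.9 in Tn, also without overlap. The TC difference did not pass (log2 fold change 0.16, SE 0.070, adjusted p = 0.0536). Uqcr10 in TC passed without B6 Tfh 1, 2, 3 or 4 or TC Tfh 2 (adjusted p 0.00992 to 0.0281) and with the length and GC offsets (5.36e-07). It also passed with RLE, library totals, TMM computed without ribosomal, mitochondrial and receptor genes, a count minimum of 50 and only the groups compared. Uqcrb, which helps hold the complex together, had a log2 fold change of 0.13 in TC and 0.11 in B6 and passed in neither by the main test. It gained a call in both strains with library totals and with the length and GC offsets.

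Uqcr11, a small subunit at the edge of complex III, was the gene whose cell type difference varied most between strains. It had 21.5, 20.3 and 19.997 normalised CPM in TC Tfh, against 17.5, 14.7 and 16.3 in TC Tn. In B6 it had 23.3, 27.95, 23.5 and 23.6 in Tfh, against 26.1, 25.5, 25.9 and 24.8 in Tn. All TC Tfh values were above all TC Tn values (log2 fold change 0.35, SE 0.086, adjusted p = 0.00166), while B6 Tfh 2 alone of the B6 Tfh libraries rose above the B6 Tn values (log2 fold change −0.056, SE 0.070, adjusted p = 0.489). TC was below B6 in Tfh (log2 fold change −0.26, SE 0.077, adjusted p = 0.0112) and further below in Tn (log2 fold change −0.66, SE 0.080, adjusted p = 3.18e-06); the Tfh call ended without TC Tfh 4 (adjusted p = 0.0553).

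The difference of the cell type effect between strains, tested as an interaction in which a positive value means a higher ratio of Tfh to Tn in TC, was 0.40 for Uqcr11 (SE 0.11, adjusted p = 0.0653). By edgeR's quasi-likelihood test 0 of the 38 genes were called in it, where 2.32% of all genes were (0.953% higher and 1.37% lower), and 1, Uqcr11, had an unadjusted p below 0.05. Uqcr11 was called by DESeq2 (adjusted p = 0.0307), with mouse as a block (0.0307), with the length and GC offsets (0.00920), with TMM computed without ribosomal, mitochondrial and receptor genes (0.0374) and without B6 Tfh 2 (0.0147). The settings that called it called between 2.575% and 5.48% of all genes in the interaction. Uqcr11 was not called by limma voom (0.0732), nor under any other setting tried, up to an adjusted p of 0.188 without TC Tn 2. For Cox7a2l the interaction was 0.0068 (SE 0.11) and for Uqcrfs1 0.08 (SE 0.076). That of Uqcr10 was −0.15 (SE 0.090, adjusted p = 0.465) and that of Uqcrc1 −0.023 (SE 0.068, adjusted p = 0.938).

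In complex IV, Cox4i1 fell in Tfh beside Cox7a2l. It had 135, 130.1 and 129 normalised CPM in TC Tfh, against 196, 179 and 183 in TC Tn, and 172, 232, 192 and 195 in B6 Tfh, against 263, 284, 285 and 246 in B6 Tn. The cell types did not overlap in either strain (TC: log2 fold change −0.50, SE 0.085, adjusted p = 5.41e-05; B6: log2 fold change −0.44, SE 0.073, adjusted p = 3.13e-05). Cox6a1, the form of subunit 6a outside heart and muscle, fell by 0.40 in TC (adjusted p = 0.000189) and 0.26 in B6 (adjusted p = 0.00197), and Cox5a by 0.30 (adjusted p = 0.00151) and 0.33 (adjusted p = 9.20e-05) on the log2 scale. The B6 Tfh and B6 Tn libraries overlapped for Cox6a1. Between strains Cox6a1 was lower in TC Tfh (log2 fold change −0.46, adjusted p = 6.26e-05) and TC Tn (−0.32, adjusted p = 0.00111). Cox7a2 fell by 0.29 in TC (adjusted p = 0.00273) and 0.23 in B6 (adjusted p = 0.00304), with a direction that turned under the length and GC offsets (0.057 in TC and 0.091 in B6). Under these offsets Cox5a was not called either (0.0030 in TC, adjusted p = 0.964, and −0.042 in B6, adjusted p = 0.421), and Cox6a1 lost its B6 call with library totals (adjusted p = 0.0818). Cox7b passed in TC (log2 fold change −0.23, SE 0.092, adjusted p = 0.0348) and not in B6 (−0.10); the TC call of Cox7b stayed only without B6 Tfh 2, TC Tn 2 or a B6 Tn library when 1 was left out, and the fold change was 0.057 with the offsets. Cox6c was higher in B6 Tfh (log2 fold change 0.13, SE 0.057, adjusted p = 0.0449), with overlapping libraries, and not called in TC (0.07). That B6 call ended without B6 Tfh 2, B6 Tn 1, B6 Tn 2, B6 Tn 4, TC Tn 1 or TC Tn 2 (adjusted p 0.0517 to 0.154). In TC Cox6c gained a call with library totals and with the length and GC offsets. Cox5b, Cox6b1, Cox7c and Cox8a, of the same complex, passed in neither strain by the main test, with log2 fold changes between −0.20 and 0.10. With the length and GC offsets Cox5b, Cox6b1 and Cox8a gained a call in both strains, and Cox7b and Cox7c in B6. With library totals Cox6b1 and Cox8a gained a call in both strains, and Cox5b in B6. Cox6b1 was called in B6 without B6 Tfh 1. Cox7c was called in B6 without B6 Tn 4 and in TC without TC Tn 4.

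In ATP synthase, 9 genes were lower in Tfh and 2 higher in TC, where 32.4% and 33.7% of all genes were. In B6 10 were lower and 2 higher, where 33.3% and 36.9% of all genes were. Without B6 Tfh 2 these B6 counts were 11 and 2, against 31.7% and 38.1%. Atp5b, with the library values given above, fell by 0.33 in TC (adjusted p = 6.29e-05) and 0.44 in B6 (adjusted p = 3.68e-07) on the log2 scale. Atp5h, a peripheral stalk subunit, had 85.1, 86.7 and 94.1 normalised CPM in TC Tfh, against 129.7, 124 and 133 in TC Tn, and 103, 131, 109 and 122 in B6 Tfh, against 144, 155, 159 and 151 in B6 Tn. Tfh lay below Tn in each strain without overlap (TC: log2 fold change −0.54, SE 0.075, adjusted p = 4.99e-06; B6: log2 fold change −0.39, SE 0.064, adjusted p = 3.02e-05). Atp5o fell by 0.31 in TC (adjusted p = 0.000174) and 0.37 in B6 (adjusted p = 2.75e-06), and Atp5c1 and Atp5a1 fell in both strains by between 0.14 and 0.30. With the length and GC offsets the calls of Atp5h in B6 (adjusted p = 0.203), Atp5o in TC (0.509) and Atp5c1 in TC (0.216) ended. Atp5a1 lost its TC call without TC Tfh 1, 2 or 4, TC Tn 1 or 2, or B6 Tfh 1, 3 or 4 (adjusted p 0.0526 to 0.137), and its calls in TC (0.579) and B6 (0.153) with library totals. Atp5e, called lower in both strains (adjusted p = 0.0427 in TC and 0.000229 in B6), had a log2 fold change of 0.19 in TC with the offsets (adjusted p = 0.00628), under which the B6 call ended (0.915). The TC call of Atp5e also ended by DESeq2 (adjusted p = 0.0644), with RLE (0.0531), library totals (0.414) and TMM computed without ribosomal, mitochondrial and receptor genes (0.0811), and without B6 Tfh 1, 3 or 4, TC Tfh 2 or 4, or any TC Tn library (0.0558 to 0.269). Atp5d was called in neither strain (−0.07 in TC and −0.061 in B6).

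Of the ring genes, Atp5g1 and Atp5g3 passed in neither strain by the main test, with log2 fold changes of −0.093 and −0.0051 in TC and −0.077 and −0.035 in B6. Both gained a call in both strains with the length and GC offsets, and Atp5g3 in B6 with library totals. Atp5g2 passed in B6 (log2 fold change −0.18, SE 0.070, adjusted p = 0.0319) and not in TC (log2 fold change −0.15, SE 0.085, adjusted p = 0.124). The B6 call of Atp5g2 ended without B6 Tfh 1, 3 or 4 or B6 Tn 1 or 3 (adjusted p 0.0547 to 0.127), and the offsets turned its direction (0.048). Atp5j, the coupling factor F6 of the peripheral stalk, was higher in Tfh in TC (log2 fold change 0.18, SE 0.061, adjusted p = 0.0154) and in B6 (log2 fold change 0.14, SE 0.052, adjusted p = 0.0194), calls that ended without TC Tn 2 in TC (adjusted p = 0.0757) and without B6 Tn 1 in B6 (0.0605). Its gene overlaps Gabpa on the opposite strand, and without a stated strand setting reads of the pair cannot be told apart. Atp5s had 6.11, 5.37 and 6.50 normalised CPM in TC Tfh, against 3.73, 3.75 and 3.67 in TC Tn, and 4.86, 6.04, 5.64 and 6.65 in B6 Tfh, against 3.97, 3.76, 2.69 and 3.20 in B6 Tn. Every Tfh value lay above every Tn value of its strain (TC: log2 fold change 0.69, SE 0.17, adjusted p = 0.00139; B6: log2 fold change 0.76, SE 0.14, adjusted p = 0.000126). Atp5sl was lower in Tfh in both strains (−0.19 in TC, adjusted p = 0.0207, and −0.14 in B6, adjusted p = 0.0391), and so was Atp5l on its few counts (adjusted p = 0.0400 and 0.0161). For Atp5sl the TC call ended without B6 Tfh 3 or 4, any TC Tfh library, TC Tn 2 or TC Tn 4 (adjusted p 0.0509 to 0.150), and the B6 call without B6 Tfh 1, 3 or 4, B6 Tn 3 or 4 or any TC Tfh library (0.0648 to 0.171). For Atp5l the TC call ended without B6 Tfh 1, 3 or 4, TC Tfh 2 or 4 or any TC Tn library (adjusted p 0.0514 to 0.140), and the B6 call without B6 Tfh 2 (0.0507) or B6 Tn 1 (0.0919). Weak calls of the 3 complexes between cell types also ended under other settings. With library totals those of Cox7b (adjusted p = 0.251), Atp5c1 (0.136), Atp5sl (0.300) and Atp5l (0.0835) ended in TC and those of Cox7a2 (0.164), Atp5g2 (0.592) and Atp5sl (0.900) in B6. With TMM computed without ribosomal, mitochondrial and receptor genes those of Uqcrc1 (0.103), Cox7b (0.0598) and Atp5a1 (0.0585) ended in TC and those of Cox6c (0.138) and Atp5j (0.0766) in B6. By DESeq2 the calls of Atp5l in TC (0.0860) and Atp5sl in B6 (0.0584) ended, and with no filter those of Atp5j (0.0917) and Atp5l (0.0669) in TC and Cox6c (0.0575) and Atp5sl (0.0565) in B6. With the length and GC offsets Atp5l lost its calls in TC (0.273) and B6 (0.140). With only the groups compared those of Uqcrc1 in TC (0.105) and of Cox6c (0.0620), Atp5g2 (0.0622) and Atp5sl (0.0847) in B6 ended. The call of Uqcrc1 in TC ended with RLE (0.0602), and that of Atp5sl in B6 with a count minimum of 50 (0.0566).

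Of 5 tested subunits of the same enzymes whose symbols the naming rule does not reach, 3 were lower in TC Tfh and 5 in TC Tn, while between cell types 2 were higher and 2 lower in TC and 2 lower in B6. Of all genes tested 25.5% were lower in TC Tfh and 26.1% in TC Tn, and between cell types 33.7% were higher and 32.4% lower in TC and 33.3% lower in B6. Ndufa4, a subunit of complex IV despite its name, had 53.8 ± 1.90 normalised CPM in TC Tfh and 76.9 ± 8.42 in B6 Tfh (log2 fold change −0.52, SE 0.077, adjusted p = 3.94e-05), and 53.1 ± 2.73 in TC Tn and 83.3 ± 6.19 in B6 Tn (log2 fold change −0.65, SE 0.077, adjusted p = 2.67e-06). Usmg5, a small membrane subunit of ATP synthase, was lower in TC Tfh (log2 fold change −0.71, SE 0.11, adjusted p = 4.91e-05) and TC Tn (log2 fold change −0.45, SE 0.10, adjusted p = 0.00136). Cycs, the somatic cytochrome c that links complexes III and IV, was lower in TC Tfh (log2 fold change −0.42, SE 0.12, adjusted p = 0.00674) and TC Tn (log2 fold change −0.51, SE 0.11, adjusted p = 0.000934) and lower in Tfh than in Tn (−0.43 in TC and −0.53 in B6). Of the mitochondrially encoded partners, mt-Co1 of complex IV was not called between strains in Tfh (−0.056, adjusted p = 0.680) and was lower in TC Tn (−0.45, adjusted p = 0.00182), and mt-Cytb of complex III likewise (−0.15, adjusted p = 0.288, and −0.64, adjusted p = 0.000150).

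Assembly factors were counted from lists. Of 26 complex IV assembly genes tested, 13 were lower and 1 higher in TC Tfh, where 25.5% and 24.2% of all genes were, and 17 lower and 1 higher in TC Tn, where 26.1% and 25.9% were. Surf1, which helps build the haem-bearing subunit, fell by 0.58 in Tfh (adjusted p = 4.46e-05) and 0.71 in Tn (adjusted p = 5.43e-06) on the log2 scale, and Coa3, an early assembly factor, by 0.56 (adjusted p = 2.44e-06) and 0.62 (adjusted p = 4.66e-07). Cox18, which inserts a mitochondrially made subunit into the membrane, was the 1 gene higher in both (adjusted p = 0.00652 and 0.00142). Between cell types 2 were higher and 9 lower in TC, where 33.7% and 32.4% of all genes were, and 6 higher and 10 lower in B6, where 36.9% and 33.3% were. The counts of lower genes thus lay near the share of all genes, and those of higher genes below it, most of all in TC. Without B6 Tfh 2, 4 were higher and 7 lower in TC, where 35.5% and 31.1% of all genes were. In B6 they were then 6 and 9, where 38.1% and 31.7% of all genes were. Cox10, which makes haem O, fell in Tfh by 0.57 in TC (adjusted p = 2.11e-06) and 0.83 in B6 (adjusted p = 1.31e-09), and the copper chaperone Cox17 was higher in Tfh by 0.74 (adjusted p = 0.000647) and 0.94 (adjusted p = 1.28e-05).

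Of 6 complex III assembly genes, 3 were lower and 1 higher in TC Tfh, 4 lower and 1 higher in TC Tn, and between cell types 4 were lower in TC and 5 in B6, with none higher. Of all genes 25.5% were lower and 24.2% higher in TC Tfh, and 26.1% and 25.9% in TC Tn. In Tfh over Tn 32.4% were lower and 33.7% higher in TC, and 33.3% and 36.9% in B6. Without B6 Tfh 2 the count lower in TC Tfh was 2 of the 6, against 22.2% of all genes. Uqcc3, needed for cytochrome b, was lower in TC Tfh (log2 fold change −0.64, SE 0.093, adjusted p = 3.16e-05) and TC Tn (log2 fold change −0.62, SE 0.089, adjusted p = 1.79e-05), and Ttc19, which clears fragments of the Rieske protein, was the higher one (adjusted p = 0.0120 in Tfh and 0.0120 in Tn). Lyrm7, the chaperone of Uqcrfs1, had 2.41 ± 0.336 normalised CPM in TC Tfh, against 5.07 ± 0.771 in TC Tn, and 2.78 ± 0.566 in B6 Tfh, against 6.97 ± 1.08 in B6 Tn (TC: log2 fold change −1.07, SE 0.21, adjusted p = 0.000193; B6: log2 fold change −1.32, SE 0.17, adjusted p = 1.65e-06). Of 5 ATP synthase assembly and inhibitor genes 4 were lower in TC in each cell type, against the same shares of all genes. Atpif1, which encodes the inhibitor IF1 that blocks reverse turning of the enzyme, went against most subunits between cell types: it had 22.7 ± 0.509 normalised CPM in TC Tfh, against 10.2 ± 1.48 in TC Tn, and 31.96 ± 1.10 in B6 Tfh, against 12.7 ± 0.894 in B6 Tn (TC: log2 fold change 1.15, SE 0.093, adjusted p = 5.52e-09; B6: log2 fold change 1.33, SE 0.077, adjusted p = 3.56e-11). Between strains it was lower in TC (Tfh: log2 fold change −0.50, SE 0.080, adjusted p = 8.31e-05; Tn: log2 fold change −0.32, SE 0.091, adjusted p = 0.00761).

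Of 8 subunits and assembly genes of complex II, which feeds the same ubiquinone pool, 6 were lower in TC Tfh and 7 in TC Tn, with none higher, where 25.5% and 26.1% of all genes were lower. Sdhb, its iron-sulphur subunit, fell by 0.46 in Tfh (adjusted p = 6.15e-06), and Sdha, the flavoprotein, by 0.40 in Tn (adjusted p = 1.13e-06) on the log2 scale. Of 15 genes of mitochondrial mass and membrane, 11 were lower and 2 higher in TC Tfh and 10 lower in TC Tn, against those same shares lower and 24.2% of all genes higher in TC Tfh. In TC Tfh 9 were lower and 1 higher without B6 Tfh 2, against 22.2% and 23.0% of all genes. Slc25a5, an ADP/ATP carrier, was lower in TC Tfh (log2 fold change −0.46, SE 0.056, adjusted p = 6.12e-06) and TC Tn (log2 fold change −0.59, SE 0.056, adjusted p = 2.43e-07), while Immt, of the cristae junctions, was at 95.2 ± 2.07 normalised CPM in TC Tfh and 94.5 ± 3.36 in B6 Tfh (adjusted p = 0.864). Between cell types 1 was higher and 11 lower in TC, where 33.7% and 32.4% of all genes were, and 12 were lower in B6, where 33.3% were.

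Of 14 regulators of respiratory genes tested, 2 were higher and 2 lower in TC Tfh, where 24.2% and 25.5% of all genes were, and 6 higher and 3 lower in TC Tn, where 25.9% and 26.1% were. In TC Tfh 3 were higher and 2 lower without B6 Tfh 2, against 23.0% and 22.2% of all genes. Read against these shares, the counts say nothing of the regulators as a group. Ppargc1b, a coactivator of mitochondrial biogenesis, had 18.5 ± 2.45 normalised CPM in TC Tfh and 10.5 ± 1.22 in B6 Tfh (log2 fold change 0.81, SE 0.11, adjusted p = 2.32e-05), and 21.4 ± 0.881 in TC Tn and 11.04 ± 1.41 in B6 Tn (log2 fold change 0.96, SE 0.11, adjusted p = 2.63e-06). Tfam, which packages and transcribes mitochondrial DNA, was lower in TC Tfh (log2 fold change −0.31, SE 0.051, adjusted p = 8.21e-05) and TC Tn (log2 fold change −0.31, SE 0.050, adjusted p = 6.41e-05). Nrf1 was called between strains in neither cell type (adjusted p = 0.963 and 0.172), nor were Gabpa (adjusted p = 0.0517 and 0.192) and Yy1 (adjusted p = 0.124 and 0.0604). Between cell types 2 were higher and 7 lower in TC, where 33.7% and 32.4% of all genes were, and 2 higher and 6 lower in B6, where 36.9% and 33.3% were, with Pprc1, another coactivator of this family, lower in Tfh by 0.86 in TC (adjusted p = 1.93e-10) and 0.86 in B6 (adjusted p = 1.75e-11).

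The counts of some members are uncertain for reasons of annotation. Atp5a1, Atp5d, Atp5f1, Cox4i1, Cox6c, Uqcrb and Uqcrc2 also share bases with a protein-coding gene on the opposite strand, as Atp5j does. Cox4i1 shares bases with Gm20388, a protein-coding gene on the same strand, as well. Atp5o is listed under a second gene model that reads through it. The 4 symbols left out as pseudogenes had 16 counts at most over all libraries, and the genes of subunits 6a, 6b, 7a and c are families of similar sequence.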

How the data were processed

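RNA of sorted splenic Tfh and Tn cells was measured in 14 libraries from 7 mice. Per the labels' protocols, RNA was extracted with RNeasy kits and sequencing libraries came from the TruSeq Stranded kit; per the submitters' processing notes STAR 2.7, mm10 and DESeq2 were used. The counting tool was not given in the sources used here, and neither were strand setting and annotation. The deposited table holds raw counts per gene symbol as the authors made them, with no normalisation.

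From these counts, edgeR 4.0.16 in R 4.3.3 (TMM, filterByExpr with a count minimum of 10, robust quasi-likelihood fit of the 4 groups, 14 libraries) tested 13427 genes in 5 contrasts, with Benjamini-Hochberg adjustment. Levels are CPM on TMM-scaled totals, as mean ± SD. Library totals of 15162309 to 20191558 put 3 counts at 0.198 to 0.149 CPM; such floors cover counting error only. Replicates within a group are separate mice, so p-values measure the spread between mice, 3 TC and 4 B6. The main fit did not pair the Tfh and Tn of a mouse, so its cell type and interaction p-values leave the pairing out. With mouse as a block 5.48% of all genes were called in the interaction, against 2.32% in the main fit. Tfh and Tn of a mouse carry its number in the labels and come from that mouse; their deviations from group means correlated at 0.0395 to 0.299 across genes, above 0 in every mouse; those of B6 mouse 3 correlated less with each other (0.0395) than with another mouse (0.0501), the other 6 pairs best with their own. No library pair of a group agreed within sampling noise (chi-square per degree of freedom 5.31 to 20.4).

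Positions, transcript lengths and GC content came from GENCODE M21 (GRCm38), promoter sequences from RefSeq on GRCm38.p6. The members and lists were chosen with earlier results of these data known. Genes were named by rule: in each comparison and complex up to 3 higher and 3 lower with the smallest adjusted p, isoform sets, core subunits, members called in the interaction or with the lowest counts, those on chromosomes 1, 4 and 7, and up to 2 list genes per direction. Uqcr11 in the interaction, Atp5e, Uqcr10 in TC, Usmg5 between strains, Nrf1, Gabpa, Yy1, mt-Co1, mt-Cytb and Immt were named after their values were seen. Alternatives were DESeq2 1.42.0, limma voom 3.58.1, RLE, library totals, TMM without ribosomal, mitochondrial and receptor genes, no filter, a count minimum of 50, offsets for length and GC content, mouse as a block, only the groups compared, and each library left out. The counts by list, complex, chromosome, shared call and overlap without B6 Tfh 2 were added after seeing the data.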

Additional observations from a re-analysis of the deposited data

Results flagged for a closer look

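In 5 of 84 tests of a single high or low library within a group of 4, the gap to the nearest other library took a larger part of the group's range than Dixon's critical value allows, where chance gives about 1 in 20. In all 5 the library was B6 Tfh 2 and the value was high. Uqcr11 had 27.95 normalised CPM there, against 23.3 to 23.6 in the other 3 B6 Tfh libraries. Uqcrq, a complex III subunit, had 43.6, against 36.4 to 37.2, and Cox7b, of complex IV, had 85.8, against 71.2 to 71.7. Atp5a1 had 619.7, against 575 to 583, and Atp5f1 had 151.1, against 128 to 132.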

How the results depend on the processing

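The fall of the genes in TC kept its direction under every alternative run: 33 or 34 were lower in TC Tfh and 33 or 34 in TC Tn with any library left out, and medians ran from −0.43 to −0.37 and from −0.48 to −0.44. Of all 13341 to 13695 genes tested with a library left out, 2843 to 3454 were lower in TC Tfh and 2973 to 3594 in TC Tn. Offsets for length and GC content moved the medians to −0.31 and −0.33. The count of genes higher in TC Tfh was 1 by DESeq2, limma voom, no filter, a count minimum of 50, the mouse block and only the groups compared. The count higher in TC Tn was 1 by DESeq2, RLE, TMM without ribosomal, mitochondrial and receptor genes, no filter and a count minimum of 50. Under these settings 2916 to 3312 of all genes tested were higher in TC Tfh and 2996 to 3564 in TC Tn. With a library left out the count of higher genes was 1 or 2 in each, as Atp5l gained or lost its call. Of all genes tested, 3014 to 3426 were then higher in TC Tfh and 3026 to 3635 in TC Tn.

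Tfh over Tn depended on the scaling. In B6, the count higher was 9 with library totals, 2 with TMM without ribosomal, mitochondrial and receptor genes and 14 with length and GC offsets, and the median was −0.00048 with library totals and reversed to 0.021 with the offsets. With that TMM 4691 of all 13427 genes were higher in B6 Tfh. In TC, the count higher was 9 and 15 and that lower 13 and 13 with library totals and the offsets, and the median was −0.057 and 0.057. With the offsets Atp5g2 (0.048) and Cox7a2 (0.091) reversed in B6, and Cox5a (0.0030), Cox7a2 (0.057), Cox7b (0.057) and Atp5e (0.19, called higher) in TC. The cause was not tested. With a library left out, higher counts were 2 to 5 and lower counts 17 to 21 in B6 (2 without B6 Tn 1), and 2 to 5 and 14 to 20 in TC (5 without B6 Tfh 1, 2 without TC Tn 2), with medians from −0.19 to −0.10 and from −0.17 to −0.11. Of all 13341 to 13695 genes tested in these fits, 4768 to 5119 were higher and 4094 to 4474 lower in B6. In TC 4366 to 4747 were higher and 3772 to 4359 lower.

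With mouse as the replicate block, pairing the Tfh and Tn of a mouse, B6 had 4 higher and 20 lower, and TC 3 and 20. Of all 13427 genes 5188 were higher and 4697 lower in B6 under this block, and 4743 and 4615 in TC. The strain comparisons had 1 higher and 34 lower in Tfh, where 3312 and 3420 of all genes were. In Tn they had 2 and 33, where 3421 and 3452 of all genes were. Under the block the interaction called 1, Uqcr11, where 5.48% of all genes were called. The interaction called 1 gene, Uqcr11, also by DESeq2, TMM without ribosomal, mitochondrial and receptor genes and the offsets, and 0 to 1 with a library left out (1 without B6 Tfh 2). Of 2804 values of the 117 calls under alternatives, 147 lost the call and 6 reversed. Depth limits Atp5l, Cox6b2 and the 3 untested isoforms.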
